A study of Gallus gallus with 6 samples.

Results

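The genes described here are 7 that act at or just below the B cell antigen receptor: CD79B, CD72, CD81, PTPRC, PIK3AP1, GRB2 and VAV2. All probes whose accession matched one of these genes were taken, which gave 7 of the 4932 genes matched on the array and 17 of its 43603 probes, with 2 or 3 for each gene. The rule for taking probes used names only and no measured value, while the genes themselves were chosen with earlier results of these data known. Every one of the 17 probes was well above background on all 6 arrays, so none was lost to the filter on dim probes. RNA came from unstimulated DT40 cells, a B lymphocyte line established from a chicken bursal lymphoma. The samples comprised 3 cultures labelled wild type and 3 labelled IRF4 knockout (genotype IRF4-deficient), and the labels give no other treatment. IRF4 is a transcription factor that acts when B cells are activated and become plasma cells. The labels describe the cultures as independent, and how many knockout clones they stand for is not stated in those labels. In cultures measured in bulk, fewer cells of a type and less RNA per cell cannot be told apart.

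The antigen receptor of a B cell is a membrane immunoglobulin joined to CD79A and CD79B, whose tails carry paired tyrosines that Src-family kinases and SYK use to start the signal. Co-receptors set how strongly the receptor answers. In mouse and human, CD72 recruits the phosphatase encoded by PTPN6 and dampens the signal, CD81 belongs to a co-receptor complex that strengthens it, and the phosphatase encoded by PTPRC (CD45) keeps Src-family kinases ready to act. Adaptors and exchange factors then pass the signal on: PIK3AP1 (BCAP) binds PI3-kinase, GRB2 links phosphorylated receptors to the Ras exchange factor SOS, and VAV2 is a guanine nucleotide exchange factor.

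Levels are given as log2 signal relative to the 75th percentile of the same array, and a positive log2 fold change is higher in the knockout, with limma's standard error (SE) after the ± sign. Between 62.4% and 68.2% of gene spots on an array were well above background, and no gene spot was saturated. Pairs of arrays had a correlation of 0.9971 to 0.9976 within a group and of 0.9385 to 0.9397 across groups. IRF4 checked the labels: the brighter of its probes was at 3.01 ± 0.13 (SD, n = 3) in wild type. In the knockout it was 18.6-fold lower, at -1.21 ± 0.14 (SD, n = 3, limma adjusted p = 4.1e-07), and still well above background on all 3 arrays. Its other probe was well above background on the wild-type arrays only and at least 11.2-fold lower in the knockout. All 7 B cell markers with a matched probe (PAX5, EBF1, CD79B, POU2AF1, SYK, BTK and TNFRSF13C) were well above background in both groups. By their brightest probes PAX5 (0.24), EBF1 (0.23) and SYK (0.57) rose, TNFRSF13C fell (-0.59) and the others were not called. Of the T cell markers CD4 and CD28 were not well above background in either group, and 3 fell in the knockout (CD3E, CD8A and CD247). CD3D was well above background in both groups and was not called (0.17, limma adjusted p = 0.073). The summed linear level of the T cell list went from between 65.8 and 68.4 to between 67.8 and 81.4, ranges that overlap. CD3D was the only tested gene of that list with a positive change, so the sum does not describe the list as a whole. The myeloid list had 1 gene of 4 (LYZ) above background in wild type and 0 in the knockout. HBBA, the only erythroid marker with a matched probe, was also above background in wild type and not in the knockout. Of the 4 fibroblast markers with a probe, COL1A2 (4.24) and COL3A1 (0.72) rose and DCN and PDGFRA were not well above background in either group. For COL3A1 only 1 of 10 probes was well above background on every knockout array, and 0 were on every wild-type array. The summed linear level of that list relative to the 75th percentile went from between 0.320 and 0.350 in wild type to between 5.62 and 6.36 in the knockout. The part of any such change in the results below was not tested.

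Of the 17 probes 6 were higher and 10 were lower in the knockout at a limma adjusted p under 0.05. Among all tested probes 70.1% were called, 40.5% higher and 29.6% lower, so a call by itself sets these genes apart little. The groups did not overlap in 16 of the 17 probes, against 75.5% of all tested probes with 6 values. These 17 probes are repeated readings of 7 genes. By the brightest probe 2 of the 7 genes were higher and 4 lower, against 38.5% and 31.8% of all named genes. At least 2-fold changes were confined, among the 17 probes, to the 5 of CD72 and CD81, against 14% of all tested probes (7.39% higher and 6.58% lower). The median log2 fold change of the 17 probes was -0.16 and that of all tested probes was 0.08. The pooled SD between replicates of a group had a median of 0.058 over the 17 probes and 0.069 over all tested probes.

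**Figure D1:**
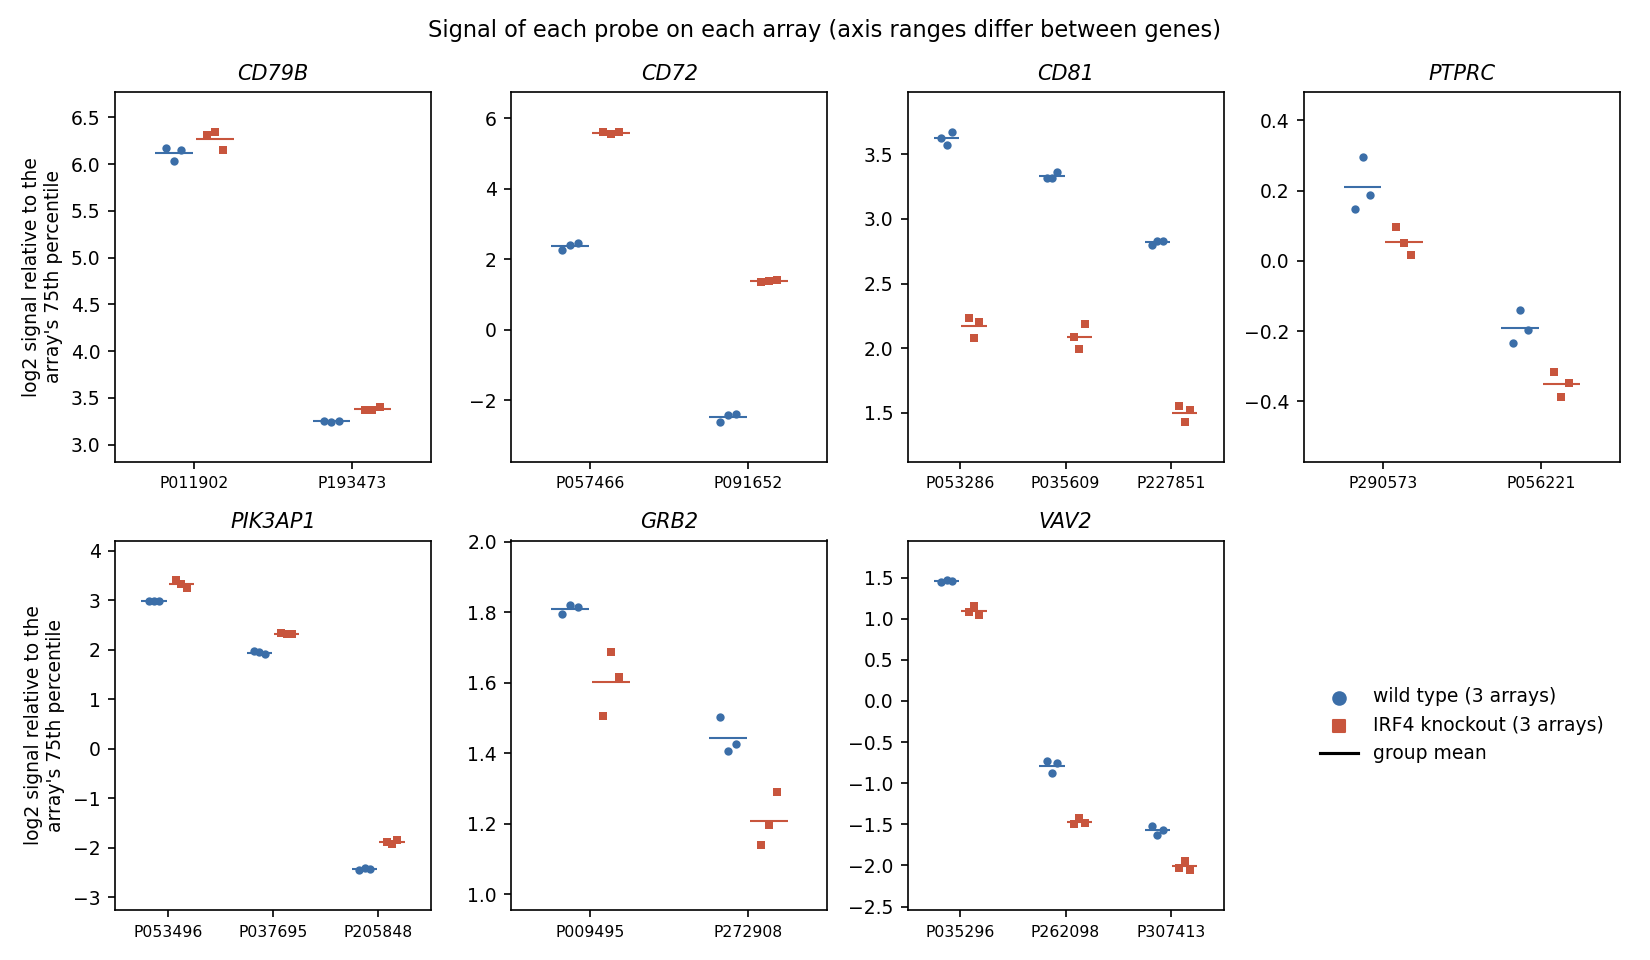
Log2 signal of each of the 17 probes relative to the 75th percentile of its array, with 3 wild-type arrays as circles, 3 knockout arrays as squares and group means as lines. The groups lie far apart for CD72 and CD81, are close but separate for PTPRC, and overlap for CD79B probe P011902.

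CD79B, the signalling chain of the receptor itself, stood at nearly the same level in both groups. Its brighter probe (A_87_P011902) read 6.17, 6.04 and 6.15 in wild-type replicates 1 to 3 and 6.31, 6.34 and 6.15 in the knockout replicates. Knockout replicate 3 lay at the wild-type level and the other knockout arrays above it, so the groups overlapped. The change of 0.15 ± 0.07 did not pass the test (adjusted p = 0.096), with a 95% interval from -0.02 to 0.31. Without knockout replicate 3 it was 0.21 and passed (adjusted p = 0.024), and with normexp background correction it was 0.16 and passed too (adjusted p = 0.019).

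The second CD79B probe (A_87_P193473) read 3.25, 3.24 and 3.25 in wild type and 3.37, 3.37 and 3.40 in the knockout. These groups did not overlap, and the rise of 0.13 ± 0.03 passed the test (adjusted p = 0.011). Knockout replicate 3, the lowest knockout array with the brighter probe, was the highest with this one. The median tested probe shifted by 0.08 in the same direction, and the call was lost with arrays centred on their median (0.04, adjusted p = 0.31), when slide was a fixed block (adjusted p = 0.19), with normexp (adjusted p = 0.054) and with the median of its chromosome subtracted (0.0031, adjusted p = 0.94). A fixed slide block, here and below, sets replicate 3 of both groups aside, since each lay alone on its slide. The change of the brighter probe was 0.02 after quantile scaling and in the authors' values alike.

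CD72, the inhibitory co-receptor, had the largest change of the 7 genes. On the scanner's linear scale its brighter probe (A_87_P057466) gave signals of 14278, 16509 and 16338 in wild type and 139358, 128181 and 130644 in the knockout, each the mean of 5 spots. Relative to the 75th percentile that is 2.26, 2.41 and 2.47 in wild type against 5.61, 5.55 and 5.61 in the knockout. The lowest knockout array lay 3.08 log2 units above the highest wild-type array. The rise was 9.24-fold (log2 fold change 3.21 ± 0.06, adjusted p = 2.5e-07), with a 95% interval from 8.33-fold to 10.3-fold. Of all tested probes 2.66% changed by at least as much in either direction.

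The coefficient of variation among the 5 spots of that probe was between 2.18% and 12.2% on an array, and larger on each knockout array than on any wild-type array. The highest wild-type spot read 17001 and the lowest knockout spot 107072, so single spots of the groups did not overlap either.

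The dimmer CD72 probe (A_87_P091652) read -2.60, -2.40 and -2.37 in wild type and 1.35, 1.38 and 1.42 in the knockout. Its rise was larger, 14.3-fold (3.84 ± 0.07, adjusted p = 2.0e-07, 95% interval from 12.8-fold to 16.1-fold). The brighter probe thus rose by 0.63 log2 units less than the dimmer one, and the per-array difference between both probes did not overlap between groups (exact permutation p = 0.1, two-sided, the smallest that 3 against 3 arrays allow). With normexp this gap between the probes was 0.43 instead of 0.63.

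Next to CD72 in the reference annotation lies CD72L1, a gene named as CD72-like that also carries CD72 among its older names. It was singled out after its values were seen, since sequence shared by both genes could blur the probes, and this was not tested. Its brighter probe (A_87_P018024) read 0.47, 0.54 and 0.53 in wild type and 1.02, 0.97 and 0.95 in the knockout, a rise of 0.47 ± 0.04 (adjusted p = 8.3e-05). The other probe (A_87_P091656) rose by 0.62 ± 0.04. CD72 rose by 2.74 log2 units more than the brighter CD72L1 probe, with no overlap of the per-array differences between groups (exact permutation p = 0.1).

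CD81, the tetraspanin of the activating co-receptor complex, went the other way. Its brightest probe (A_87_P053286) read 3.63, 3.57 and 3.67 in wild type and 2.23, 2.08 and 2.20 in the knockout. All knockout arrays lay at least 1.34 log2 units below the lowest wild-type array. The fall was 2.74-fold (log2 fold change -1.45 ± 0.05, adjusted p = 2.9e-06), with a 95% interval from 2.50-fold to 3.01-fold, and 8.74% of all tested probes changed by at least as much.

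The other CD81 probes gave similar sizes. A_87_P035609 read 3.32, 3.32 and 3.36 in wild type and 2.08, 1.99 and 2.19 in the knockout, 2.37-fold lower (-1.24 ± 0.06, adjusted p = 6.3e-06). A_87_P227851 read 2.80, 2.83 and 2.83 in wild type and 1.55, 1.43 and 1.52 in the knockout, 2.49-fold lower (-1.32 ± 0.04, adjusted p = 1.7e-06). With each of the 3 probes the knockout arrays were far below the wild-type ones. The brightest probe fell by 0.21 more than A_87_P035609 and by 0.14 more than A_87_P227851, in both cases without overlap of the per-array differences (exact permutation p = 0.1), while the latter pair of probes overlapped (p = 0.2).

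**Figure D2:**
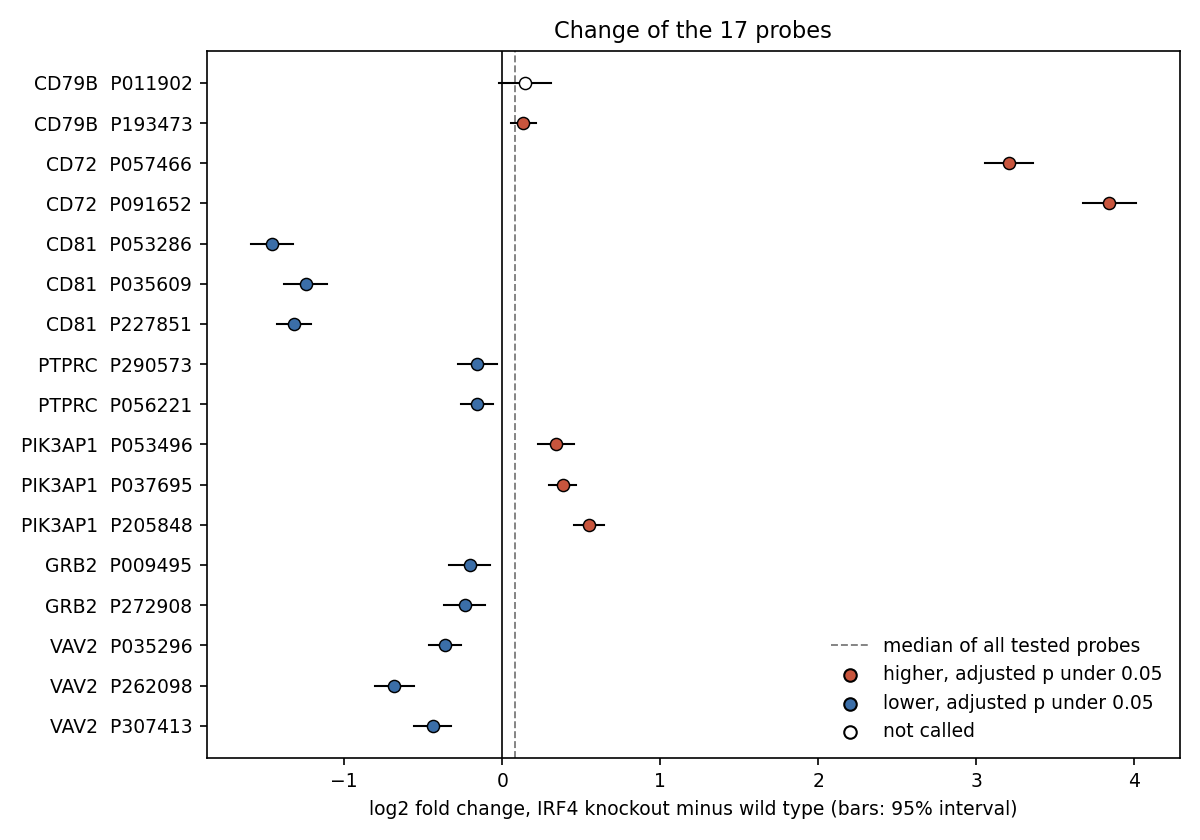
Log2 fold change of each of the 17 probes, knockout minus wild type, with 95% intervals from limma on 3 arrays a group. The probes of CD72 lie at 3.21 and 3.84 and those of CD81 between -1.45 and -1.24, whereas the other 12 lie between -0.68 and 0.55.

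PTPRC, which encodes the phosphatase CD45, was slightly lower in the knockout. Its brighter probe (A_87_P290573) read 0.15, 0.30 and 0.19 in wild type and 0.10, 0.05 and 0.02 in the knockout. The groups were separated by 0.05 log2 units, less than the SD of 0.08 among the wild-type arrays. The fall of 0.16 (SE 0.05) passed the test (adjusted p = 0.033, 1.11-fold lower). A_87_P056221 read -0.23, -0.14 and -0.20 in wild type and -0.32, -0.39 and -0.35 in the knockout, also a change of -0.16 ± 0.04 (adjusted p = 0.014).

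Both PTPRC probes thus gave the same size, and both calls were fragile. The brighter probe missed the threshold without wild-type replicate 2 (adjusted p = 0.091) or 3 (0.064), without knockout replicate 2 (0.073) or 3 (0.094), with all probes kept (0.080) and when slide was a fixed block (0.20). The other missed it without wild-type replicate 2 (0.051) and when slide was a fixed block (0.15), while subtracting the median of its chromosome took the changes to -0.26 with either probe and median centring to -0.25 with both.

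PIK3AP1, the adaptor that brings PI3-kinase to the membrane, rose with all 3 of its probes. Its brightest (A_87_P053496) read 2.98, 2.99 and 2.98 in wild type and 3.40, 3.32 and 3.25 in the knockout, 1.27-fold higher (0.34 ± 0.05, adjusted p = 8.0e-04). A_87_P037695 read 1.97, 1.95 and 1.91 against 2.34, 2.32 and 2.32, 1.30-fold higher (0.38 ± 0.03, adjusted p = 1.3e-04). No knockout array of either probe reached down to the wild-type range.

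The dimmest PIK3AP1 probe (A_87_P205848) read -2.45, -2.41 and -2.42 in wild type and -1.88, -1.92 and -1.83 in the knockout. It rose 1.46-fold (0.55 ± 0.04, adjusted p = 3.9e-05), with a 95% interval from 1.37-fold to 1.56-fold, against one from 1.17-fold to 1.37-fold for the brightest probe. The brightest probe rose by 0.21 less than this one, and the per-array differences did not overlap between groups (exact permutation p = 0.1). Changes as large as that of the brightest probe were common, at 48.3% of all tested probes.

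GRB2, the adaptor between phosphotyrosines and SOS, was lower with both of its probes. A_87_P009495 read 1.80, 1.82 and 1.82 in wild type and 1.51, 1.69 and 1.62 in the knockout, 1.15-fold lower (-0.21 ± 0.05, adjusted p = 0.013). A_87_P272908 read 1.50, 1.41 and 1.43 in wild type and 1.14, 1.20 and 1.29 in the knockout, 1.18-fold lower (-0.24 ± 0.05, adjusted p = 0.0074). The knockout arrays spread more than the wild-type ones with both probes and stayed below them. With slide as a fixed block the first probe missed the threshold (adjusted p = 0.090), and with the median of the chromosome subtracted the changes were -0.35 and -0.37.

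VAV2, the exchange factor among the 7 genes, fell with all 3 of its probes. The brightest (A_87_P035296) read 1.45, 1.47 and 1.45 in wild type and 1.08, 1.16 and 1.04 in the knockout, 1.29-fold lower (-0.36 ± 0.04, adjusted p = 3.6e-04). A_87_P262098 read -0.74, -0.87 and -0.75 against -1.49, -1.43 and -1.48, 1.60-fold lower (-0.68 ± 0.05, adjusted p = 4.6e-05). In both, every knockout array lay below every wild-type array.

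The dimmest VAV2 probe (A_87_P307413) read -1.52, -1.63 and -1.56 in wild type and -2.04, -1.94 and -2.06 in the knockout, 1.36-fold lower (-0.44 ± 0.05, adjusted p = 3.0e-04). The probes agreed in direction and differed in size: A_87_P262098 fell by 0.32 more than the brightest probe and by 0.24 more than the dimmest. None of these per-array differences overlapped between groups (exact permutation p = 0.1). Over the 13 pairs of probes of the same gene compared in this way, 8 did not overlap between groups. The lowest p adjusted over these pairs was 0.16. Probe pairs of other genes on the array were not compared, so whether 8 of 13 is usual there was not tested.

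**Figure D3:**
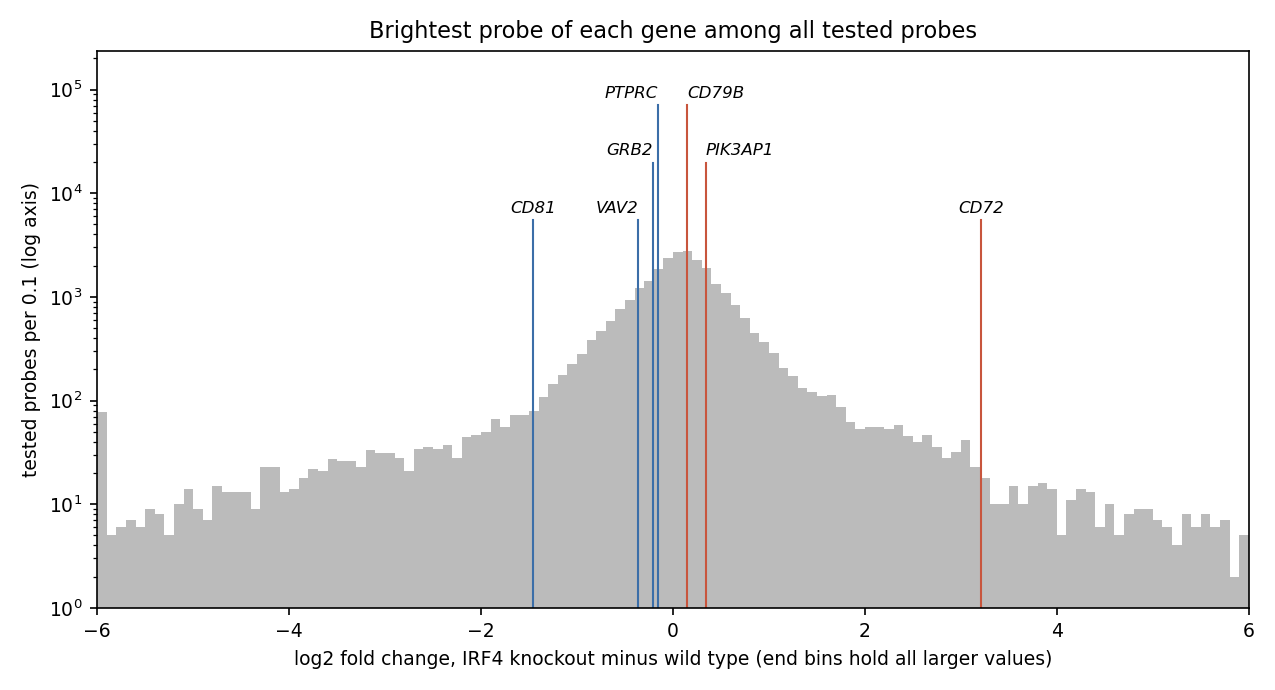
Number of tested probes at each log2 fold change, knockout minus wild type, on a log axis, with the brightest probe of each gene marked by a line. CD72 at 3.21 lies in the sparse upper tail and CD81 at -1.45 in the lower tail, while the other 5 genes lie within the bulk between -0.36 and 0.34.

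The arrays lay on 4 slides, of which the first and the second each held the arrays of replicate 1 and of replicate 2 of both groups. Within these slides all 34 differences, 17 probes on each slide, had the sign of the change over all arrays. For the 16 probes whose groups did not overlap, that sign was fixed beforehand, so it adds no separate support. CD72 differed by 3.35 and 3.14 with its brighter probe, CD81 by -1.40 and -1.50 with its brightest, and VAV2 by -0.37 and -0.31. For PIK3AP1 the differences were 0.42 and 0.33 and for GRB2 -0.29 and -0.13. Those of CD79B were 0.14 and 0.31, and those of PTPRC -0.05 and -0.25, where the slides differed by more than the change itself. Replicate 3 of each group lay alone on its slide, so with slide as a fixed block it did not enter the change. That fit called 5 of the 17 probes higher and 7 lower. Over the whole array it called 8719 of 28629 probes higher and 6876 lower, against 11635 and 8523 of 28761 in the main setting.

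Changes were also set beside those of other genes on the same chromosome. On the chromosome of CD72 the other 163 tested genes changed by a median of 0.16, with 86 higher and 27 lower, and 3 of them changed by as much as CD72 in either direction. The 6 named genes tested next to CD72, 3 on either side, ranged from -0.13 to 0.96. Of these 3 were higher and 0 lower at a limma adjusted p under 0.05 (the other 3 did not pass). On the chromosome of CD81 the median was 0.09 over 296 other genes, of which 20 changed by at least as much as CD81. Of the 6 genes taken likewise from both sides of CD81, 2 rose and 2 fell, and PHLDA2 (-1.39 ± 0.12) fell by nearly as much as CD81. The chromosomes of the other 5 genes had medians between 0.09 and 0.16, against 0.05 for all 3836 named genes. CD79B, at 0.15 with its brighter probe, lay near the median of 0.13 on its chromosome, and the remainder after subtraction was 0.02. PTPRC, GRB2 and VAV2 were lower although the median gene of their chromosomes was higher by 0.11, 0.14 and 0.16.

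Around these 7 genes 36 further genes of the receptor's neighbourhood were tested out of 92 listed, each by its brightest probe. Of these 14 rose and 12 fell (72.2% called, against 70.3% of all named genes), with a median of 0.04 against 0.05 for all named genes, of which 38.5% rose and 31.8% fell. The balance depended on the scaling, as it did over the whole array: 13 rose and 15 fell with median centring. It was 12 and 13 with quantile scaling or in the authors' values, and 13 and 16 after subtracting chromosome medians. Of all called probes 57.7% were higher in the main setting and 47.4% with median centring. That share was 52.4% with quantile scaling, 52.6% in the authors' values and 49.5% after subtracting chromosome medians. One of the 6 lists, with 7 genes of which 5 rose and the other 2 did not pass, is not described further here, and in the remaining 29 genes 9 rose and 12 fell. The lists had been drawn up with results of these data known. Among receptor and co-receptor partners CD5, a surface protein proposed to bind CD72, rose 2.95-fold (1.56 ± 0.06) and CD40 rose by 0.25 ± 0.09. The BAFF receptor gene TNFRSF13C fell 1.51-fold. CD79A, CD22 and SEMA4D had no matched probe and are not analysed here.

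Of 6 tested tetraspanins, the family of CD81, 3 fell and 2 rose, with TSPAN8 (0.52 ± 0.24, adjusted p = 0.093) not called. CD82 fell 4.19-fold (-2.07 ± 0.08) and TSPAN12 3.03-fold, while TSPAN15 rose 3.30-fold (1.72 ± 0.40) and TSPAN13 1.67-fold. The list of adaptors held both directions. In that of phosphatases the only called rise was of PTPRJ, which entered the test through the knockout arrays alone. Of 7 genes of phosphatases and the kinase CSK, which opposes CD45 at Src-family kinases, 3 fell and 1 rose. PTPN22 fell 2.21-fold (-1.15 ± 0.07) and CSK 1.44-fold (-0.53 ± 0.06), and PTPRJ, not above background in wild type, rose at least 3.87-fold. PTPN6, whose product is the phosphatase that binds CD72 in mouse, differed by 0.02 ± 0.07 (adjusted p = 0.78).

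Among 8 tested adaptors and PI3-kinase subunits 3 fell and 2 rose. PIK3CD, a catalytic subunit of the PI3-kinase that PIK3AP1 recruits, fell 2.45-fold (-1.29 ± 0.05). CBL, a ubiquitin ligase, was dim (-5.25 in wild type) and fell 1.31-fold (-0.39 ± 0.13, limma adjusted p = 0.036). DAPP1, an adaptor that binds PI3-kinase products, rose 1.54-fold (0.62 ± 0.05, limma adjusted p = 9.9e-05). The regulatory subunit gene PIK3R1 differed by 0.06 ± 0.04 (adjusted p = 0.24). LAT2, which encodes a membrane adaptor that binds GRB2, was at least 7.22-fold lower, at background on the 3 knockout arrays.

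Of the proximal kinases TEC fell by 3.58 on the log2 scale and LYN 1.94-fold, SYK rose 1.48-fold, and FYN was at least 6.99-fold higher from background in wild type.

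**Figure D4:**
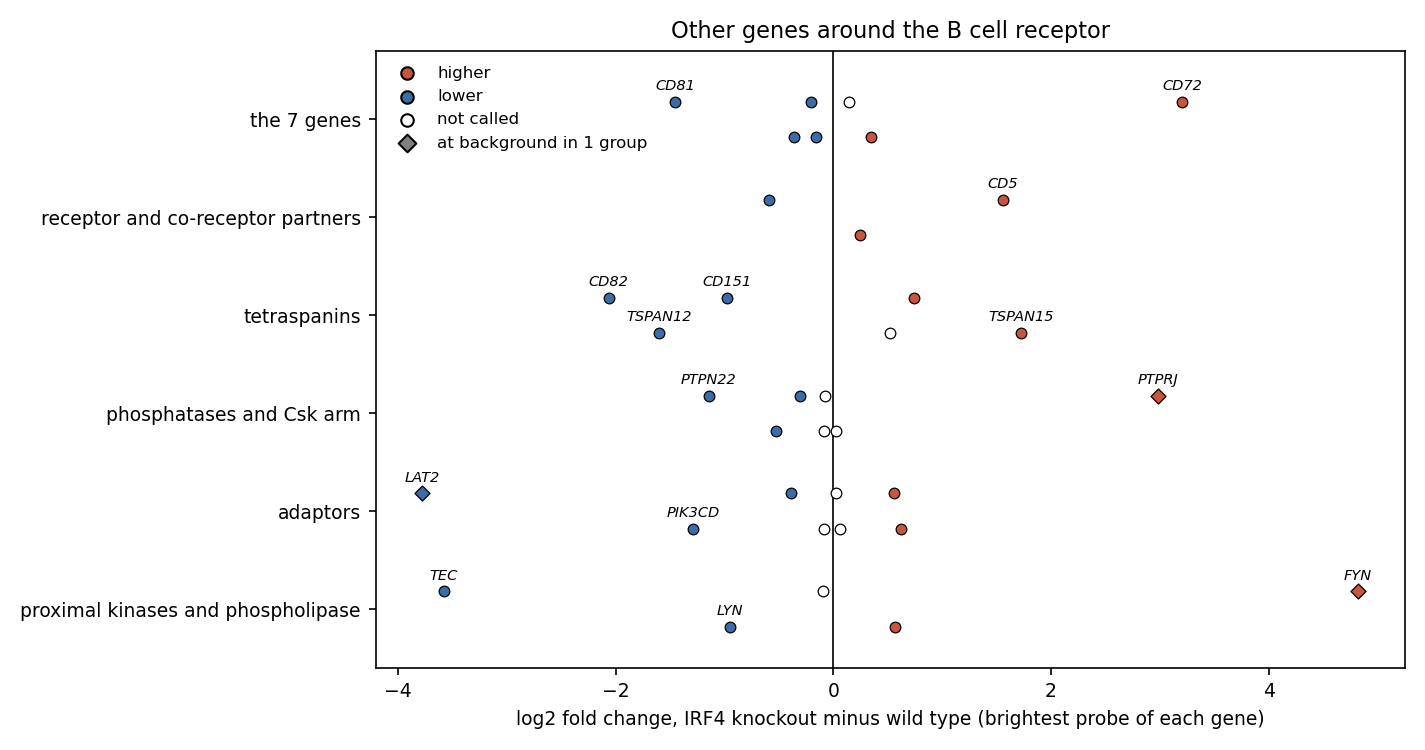
Log2 fold change of the brightest probe of each tested gene, knockout minus wild type, for the 7 genes and for other genes in 5 lists. Filled points passed an adjusted p under 0.05, and diamonds are genes at background in 1 group, whose fitted size is no measured one. Each of the 5 lists has filled points on both sides of 0, though in that of phosphatases the only filled point above 0 is a diamond.

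The genes most like the 3 members with the largest changes were sought among 3829 named genes, by the Euclidean distance over the 6 arrays. Nearest to CD81 were NCOA1 (distance 0.18 log2 units), at 3.56 in wild type and 2.19 in the knockout, and MYO1G (0.45). Nearest to VAV2 were RAB11B (0.13) and PRKCD (0.14), which fell 1.24-fold and 1.38-fold. CD72 had no close match: its nearest genes, TMSB4X and FXYD6, lay 2.23 and 2.38 log2 units away and rose 2.99-fold and 2.43-fold.

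**Figure D5:**
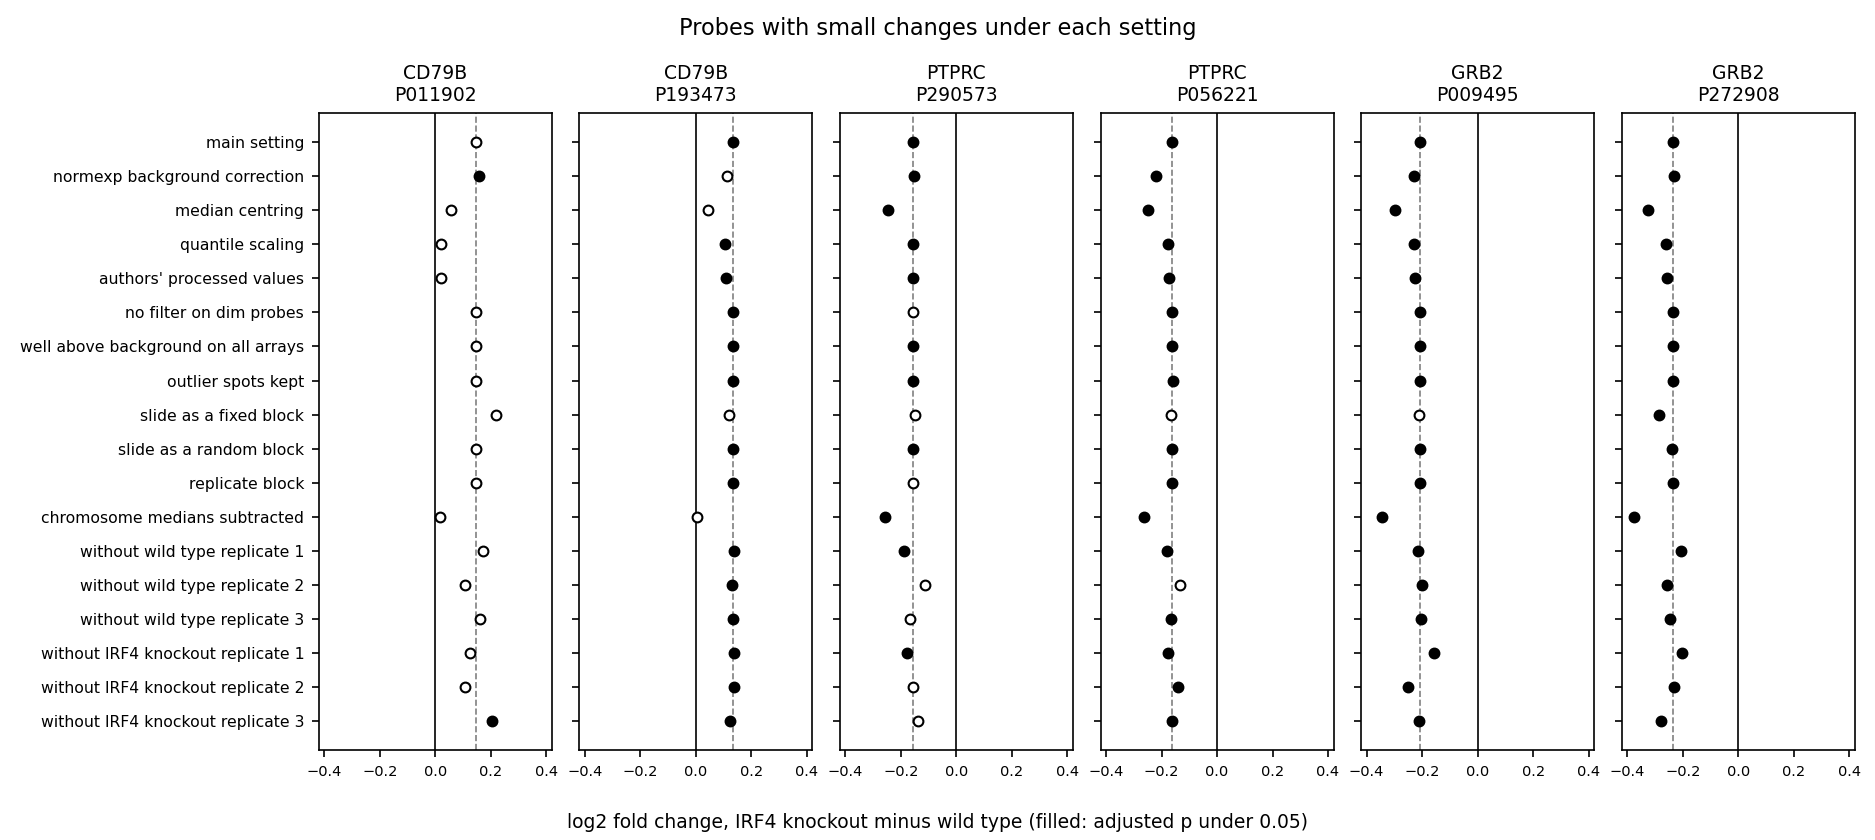
Log2 fold change of the probes of CD79B, PTPRC and GRB2 in the main setting and under 17 alternatives, filled where the adjusted p was under 0.05. All points keep their side of 0, while both CD79B probes, both PTPRC probes and GRB2 probe P009495 change their call under at least 1 alternative.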

How the data were processed

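Total RNA of 6 DT40 cultures was hybridised after Cy3 labelling for 1 colour, per the labels' protocols, although the labels' dye field reads biotin. Per the file headers, the authors read each Agilent array with Feature Extraction 10.7.1.1, and the annotation named the galGal3 build. The deposited intensity used was the processed green signal, background-subtracted on a linear scale. Deposited flags of 0 or 1 gave spots above background, saturated spots and outliers. The authors' processed table held intensity values brought to 1 common distribution, while limma and R 2.12.0 stand, with no role given, in the submitters' processing notes.

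Control spots (1417 of 45220) and outlier spots were left out. Log2 signals minus the array's 75th percentile were averaged over the spots of a probe. Testing required the flag for well above background on every array of 1 group or of both (28761 of 43603). Genes were assigned through unversioned accessions in a GRCg7b RefSeq table, which named 10691 probes (24.5%). That build is not the array's, so no coordinates are printed. No file used here held sequences.

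Limma 3.58.1 in R 4.3.3 compared the groups over all tested probes (two-sided, Benjamini-Hochberg adjusted p under 0.05). The same fit was also run on simulated data in which 200 of 28629 probes changed, far fewer than were called here. It called 1 of 50 changes of 0.2 log2 units, 62% of those of 0.5 and 88% of those of 1 or 2. The simulation thus does not show how small changes are called in these data. A bound written as at least N-fold sets the bright group against the detection floor of each dim array (its lowest signal flagged well above background, or the probe's own if higher). Named genes were the 7 genes, IRF4, in each list the 2 largest called rises and falls measured on all arrays, and the nearest patterns; CD72L1, PHLDA2, PTPN6, PIK3R1, PTPRJ, LAT2, FYN and uncalled genes named to complete a count were added after their values were seen. The members, lists and tests were chosen with earlier results of these data known. P-values measure the spread between these cultures, and the 3 arrays a group limit their precision.

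Replicate numbers came from the titles. Deviations of same-numbered arrays from their group means correlated between -0.012 and -0.0084, so the numbers were not taken as pairs. Alternatives were other background corrections, scalings, filters, the authors' values, slide and replicate blocks, gene-level summaries, chromosome medians subtracted, and each array left out. The normexp alternative used median signals, since the files hold no mean signal. The genes of 1 of the 6 lists are not reported here by name; they are included in the counts over all lists.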

Additional observations from a re-analysis of the deposited data

How the results depend on the processing

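Over 17 probes and 17 alternatives, 273 of 289 refits kept the direction and the side of the threshold, 14 lost a call, 2 gained one and 0 reversed. The calls of CD72, CD81, PIK3AP1, VAV2 and the second GRB2 probe held in all of them. CD72's brighter probe ranged from 3.04 to 3.25 and CD81's brightest from -1.55 to -1.41. Leaving out 1 array gave 6 to 7 higher and 8 to 10 lower of the 17 probes. Of all 28761 tested probes it gave 10553 to 11334 higher and 7890 to 8279 lower, against 11635 and 8523 in the main setting. The replicate block gave 6 higher and 9 lower of the 17 probes, the lost call being PTPRC's brighter probe. Over the whole array that block gave 11070 higher and 8151 lower of 28629 probes. Averaging the probes of a gene made CD79B pass (0.14, adjusted p = 0.022), so 3 genes rose instead of 2. Of all called probes 57.7% were higher in the main setting and 47.4% with median centring. With chromosome medians subtracted 2762 probes were higher and 2821 lower, where by construction only the 8284 tested probes with a placed gene entered. The change of IRF4 kept its direction and its call under every alternative run on probes. The cause of the lost calls was not tested. Signal over background limits the dimmest probes: that of PIK3AP1 lay nearest to it on its lowest array, followed by those of CD72 at 21.1 times and VAV2 at 21.7 times background.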
